A study of Arabidopsis thaliana with 12 samples.

Results

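COR15A, COR27, AT4G25580 and GI, cold-regulated and clock genes of the Arabidopsis thaliana nucleus, were followed across 12 Affymetrix ATH1 arrays of whole seedlings. They are 4 of the 13350 different genes that a probe set names alone, among 22746 probe sets tested, and each was read from the only probe set that names it. The genes were chosen by name with their values in all 6 groups already known. Those values are therefore given as a description with no p-value, and tests are kept for other genes.

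The groups were gun1-1 with and without lincomycin, abi4-102 with and without lincomycin, and Col-0 with and without lincomycin, with 2 arrays each. gun1-1 carries a mutation in GUN1, a pentatricopeptide repeat protein of plastids, and abi4-102 one in ABI4, a transcription factor. Both mutants have the Col-0 background, and Col-0 is the wild type. Lincomycin blocks translation in plastids. The labels give 2 concentrations for it, 220 µg/ml where the treatment is described and 200 µg/ml in the sample source. All seedlings were 5 days old and grew under light and dark cycles on 1% sucrose at 21 °C, in light of 20 µmol (per square metre each second). The hour of harvest is not given in the sources used here. The design sets the response to lincomycin side by side in the 3 genotypes. Nothing states that the 2 arrays of a group came from separate cultures, so errors and p-values reflect how far these samples spread, and that spread may be technical.

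Plants in the cold switch on COR genes through transcription factors of the CBF family, and many COR proteins protect membranes and proteins when cells lose water. COR15A is such a protein of the chloroplast stroma, encoded in the nucleus and imported. COR27 is both cold-induced and a nuclear regulator of the circadian clock and of light signalling. GI (GIGANTEA) is a clock protein of the evening that acts in photoperiodic flowering and in freezing tolerance. The gene table gives AT4G25580 no other name.

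COR15A was lower with lincomycin than without it in every genotype, while COR27, AT4G25580 and GI were higher. In all 3 genotypes the arrays with and without lincomycin lay apart for each of the 4 genes. Such separation is common with 2 arrays a side: it held for 53.2% of all probe sets in gun1-1, 56.0% in abi4-102 and 58.2% in Col-0, so the count itself says little. The sizes differed widely, and replicates of the same group were far apart for 3 of the genes.

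**Figure D1:**
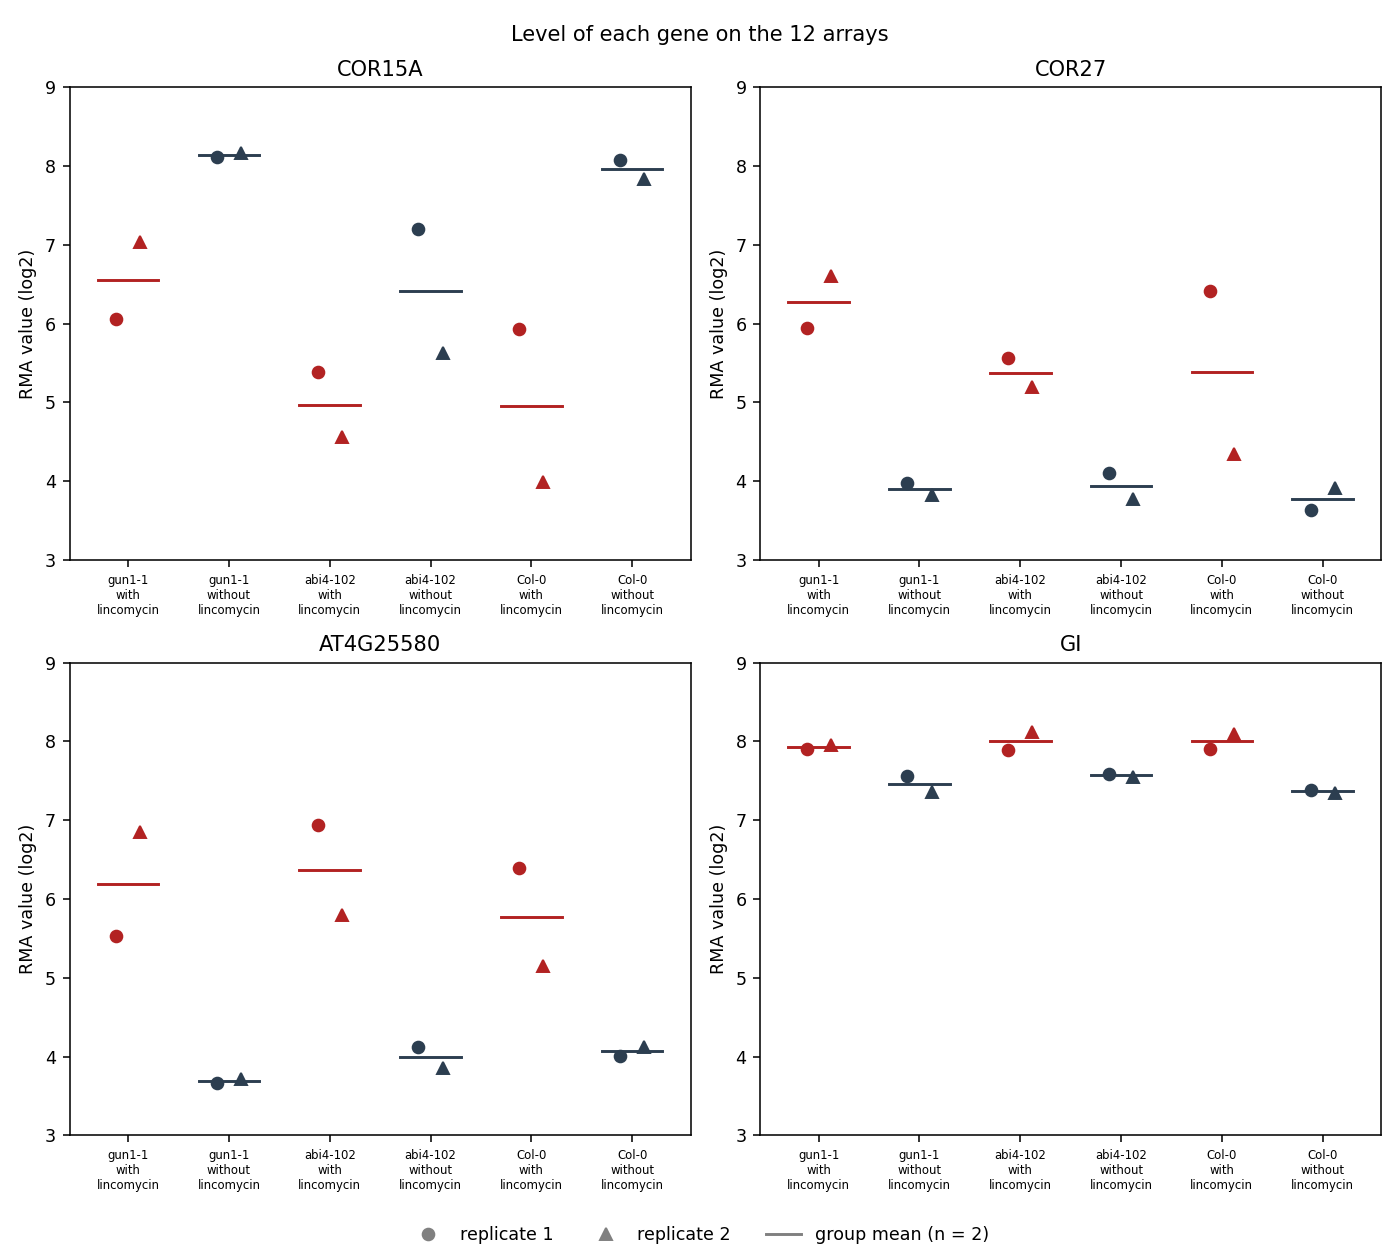
RMA values (log2) of COR15A, COR27, AT4G25580 and GI on each of the 12 arrays, by group; circles are replicate 1, triangles replicate 2, lines the group means of 2 arrays, red with and dark blue without lincomycin. COR15A is lower with lincomycin and the other 3 genes higher, and the arrays of Col-0 with lincomycin lie 1.93 apart for COR15A and 2.06 apart for COR27.

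COR15A had log2 values of 6.06 and 7.04 in gun1-1 with lincomycin, against 8.11 and 8.17 in gun1-1 without it. It stood at 5.38 and 4.56 in abi4-102 with lincomycin, against 7.20 and 5.63 in abi4-102 without. In Col-0 it stood at 5.93 and 3.99 with lincomycin, against 8.08 and 7.84 without. The 2 highest groups were thus gun1-1 and Col-0 without lincomycin, and the 2 lowest were abi4-102 and Col-0 with lincomycin. Between them lay gun1-1 with lincomycin (mean 6.55) and abi4-102 without lincomycin (mean 6.42), whose arrays overlap. The lowest 2 means, 4.97 in abi4-102 and 4.96 in Col-0, differed by 0.01.

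The lincomycin response of COR15A, as a log2 fold change with its standard error (SE) from the fit across all probe sets, was -1.59 (SE 0.61) in gun1-1, -1.44 in abi4-102 and -3.00 in Col-0. This is 3.01-fold, 2.72-fold and 7.99-fold lower with the drug. Only 0.1% of probe sets had a larger absolute response in Col-0. The fit draws every SE toward the spread typical of all probe sets. For COR15A, COR27 and AT4G25580 the SE is therefore smaller than their own replicates would give. Their replicate standard deviations were 0.81, 0.65 and 0.62, against a median of 0.14 over all probe sets. The Col-0 value moved to -3.97 without replicate 1 of Col-0 with lincomycin and to -2.03 without its replicate 2. The abi4-102 value moved to -0.66 without replicate 1 of abi4-102 without lincomycin and to -2.23 without that group's replicate 2. The response was smaller in size by 1.41 in gun1-1 and by 1.55 in abi4-102 than in Col-0 (SE 0.87 each), and the 2 differences share the Col-0 arrays. Without replicate 2 of Col-0 with lincomycin they were 0.44 and 0.59.

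The genotypes were also set against each other on each medium. With lincomycin gun1-1 lay 1.59 above Col-0 on the log2 scale (SE 0.61) and apart from it, as 47.7% of all probe sets did in either direction. That value was 0.62 without Col-0 replicate 2 and 2.56 without Col-0 replicate 1. abi4-102 and Col-0 overlapped there, where arrays lay apart for 37.9% of probe sets. Without lincomycin abi4-102 lay 1.54 below Col-0 (2.91-fold, SE 0.61), and only 0.2% of all probe sets differed by more in that comparison. Its 2 arrays, 7.20 and 5.63, were 1.57 apart, so the gap between the means was no larger than the gap between these replicates. The value was -0.76 without abi4-102 replicate 2 and -2.33 without abi4-102 replicate 1. gun1-1 lay 0.18 above Col-0 without lincomycin and apart from it, where arrays lay apart for 40.6% of all probe sets. That is less than the standard deviation of 0.81 between replicates of this gene, which pools all 6 groups. The standard deviations of these 2 groups were 0.05 in gun1-1 and 0.17 in Col-0, from 2 arrays each.

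Transcripts of green tissue, which are abundant in seedlings with working chloroplasts, moved with COR15A in part. Of 13 listed markers 9 were measured, which here means that a probe set names the gene alone in the annotation used. Their summed linear signal ran from 24500 to 25200 in gun1-1 with lincomycin, from 13400 to 13500 in abi4-102 with lincomycin, and from 11500 to 11800 in Col-0 with lincomycin. Without lincomycin it ran from 30000 to 32200 in gun1-1, from 25700 to 27600 in abi4-102 and from 29800 to 31000 in Col-0. In limma's test across all probe sets 3 of the 9 fell on lincomycin in gun1-1, 9 in abi4-102 and 8 in Col-0, and none rose. Over all probe sets 4.90% fell in gun1-1, 5.51% in abi4-102 and 7.95% in Col-0. The marker list was chosen with earlier results of these data known, so these counts are a description only. The gun1-1 count was between 0 and 2 with any 1 of its 4 arrays left out. The part of this shift in the level of COR15A was not tested. In whole seedlings fewer cells of a type and less RNA per cell cannot be told apart. The 2 root markers measured of 11 had summed signals of 69 to 150 in gun1-1 with lincomycin and of 56.2 to 84.8 in all other groups. The 3 epidermis and stomata markers measured of 9 had lower sums with lincomycin in every genotype. They summed to 64.1 to 69.8 with lincomycin against 76.7 to 84.2 without in gun1-1, to 49.9 to 60.7 against 68.8 to 72.6 in abi4-102, and to 62.5 to 72.3 against 75.6 to 81.8 in Col-0, and none of the 3 passed. The 1 seed marker measured of 11, M10, ran the other way. Its signal was 16.1 to 17 with lincomycin against 13.4 to 14.4 without in gun1-1, 18.6 to 23.6 against 17 to 17.3 in abi4-102, and 16.1 to 22.1 against 12.1 to 13 in Col-0. The part of these shifts in the responses of the 4 genes was not tested. Of these 6 markers, EXPA18 rose in gun1-1 with lincomycin (2.26-fold, limma adjusted p = 0.035) and M10 in Col-0 with lincomycin (1.51-fold, adjusted p = 0.0248), where 5.79% and 9.40% of all probe sets rose. The EXPA18 call was lost without replicate 1 of gun1-1 with lincomycin or either array of gun1-1 without it (adjusted p from 0.0808 to 0.165). The M10 call was lost without replicate 1 of Col-0 with lincomycin or either array of Col-0 without it (adjusted p from 0.09 to 0.186).

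COR27 ran the other way. It had log2 values of 5.95 and 6.60 in gun1-1 with lincomycin, against 3.98 and 3.82 in gun1-1 without it. In abi4-102 it had 5.56 and 5.19 with lincomycin, against 4.11 and 3.78 without. In Col-0 it had 6.42 and 4.35 with lincomycin, against 3.64 and 3.91 without. All 6 arrays without lincomycin lay between 3.64 and 4.11, and all 6 arrays with lincomycin lay above them. The lowest of these was Col-0 replicate 2, at 4.35, while Col-0 replicate 1 was among the highest. RMA shrinks differences between dim probe sets, so the folds of COR27 may be understated at its low end.

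The response of COR27 was 5.19-fold in gun1-1 (log2 fold change 2.37, SE 0.49), 2.69-fold in abi4-102 (1.43) and 3.05-fold in Col-0 (1.61). The order of the groups with lincomycin was gun1-1 (mean 6.28), Col-0 (5.38) and abi4-102 (5.37), and the arrays of gun1-1 and Col-0 overlap. gun1-1 exceeded Col-0 on lincomycin by 0.89 (SE 0.49), which became -0.14 without Col-0 replicate 2 and 1.92 without Col-0 replicate 1. No order between gun1-1 and Col-0 can therefore be read from these arrays. The Col-0 response itself was 0.58 without Col-0 replicate 1 with lincomycin and 2.64 without its replicate 2. Without lincomycin the 3 genotype means were 3.90 in gun1-1, 3.95 in abi4-102 and 3.78 in Col-0, and the arrays of all 3 groups overlap.

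AT4G25580 was also higher with lincomycin in every genotype. Its log2 values were 5.53 and 6.85 in gun1-1 with lincomycin, against 3.66 and 3.71 in gun1-1 without it. They were 6.94 and 5.80 in abi4-102 with lincomycin, against 4.12 and 3.86 without. They were 6.40 and 5.15 in Col-0 with lincomycin, against 4.01 and 4.12 without. The lowest array with lincomycin, 5.15, stood above the highest array without it, 4.12, whatever the genotype. The response was 5.67-fold in gun1-1 (log2 fold change 2.50, SE 0.47), 5.21-fold in abi4-102 (2.38) and 3.26-fold in Col-0 (1.71). On the log2 scale the gun1-1 value was 3.16 and 1.84 without replicate 1 and without replicate 2 of gun1-1 with lincomycin. The Col-0 value was 1.08 and 2.33 without replicate 1 and without replicate 2 of Col-0 with lincomycin.

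Among the groups with lincomycin the arrays of AT4G25580 overlap between all genotypes. gun1-1 exceeded Col-0 by 0.42 and abi4-102 exceeded Col-0 by 0.60 (SE 0.47 each), with no clear order. Without gun1-1 replicate 2 or without Col-0 replicate 2 the first value was -0.24 or -0.21, and without Col-0 replicate 2 the second was -0.03. Without lincomycin gun1-1 lay lowest, 0.38 below Col-0 and apart from it. Of all probe sets 40.6% had arrays apart in that comparison. The difference is smaller than the SE of 0.47, but that SE pools the spread of all 6 groups. The standard deviations of the 2 groups compared were 0.04 in gun1-1 and 0.07 in Col-0, from 2 arrays each. The responses in gun1-1 and abi4-102 exceeded that in Col-0 by 0.80 and 0.67 (SE 0.67 each).

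GI was the steadiest of the 4 genes. It had log2 values of 7.91 and 7.96 in gun1-1 with lincomycin, against 7.56 and 7.36 in gun1-1 without it. It had 7.89 and 8.12 in abi4-102 with lincomycin, against 7.59 and 7.55 without. It had 7.90 and 8.10 in Col-0 with lincomycin, against 7.39 and 7.35 without. All 6 arrays with lincomycin lay above all 6 without. The response was 1.39-fold in gun1-1 (log2 fold change 0.48, SE 0.12), 1.35-fold in abi4-102 (0.43) and 1.55-fold in Col-0 (0.63), and between 11.77% and 18.16% of probe sets responded more strongly in the 3 genotypes.

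Differences of the mutants from Col-0 in GI were small, at most 0.20 in size on the log2 scale. On lincomycin the means were 7.94 in gun1-1, 8.00 in both abi4-102 and Col-0, and the arrays of all 3 groups overlap. Without lincomycin they were 7.46 in gun1-1, 7.57 in abi4-102 and 7.37 in Col-0. The arrays of abi4-102 lay apart from and above those of Col-0 there, by 0.20 (SE 0.12, pooled over 6 groups). The standard deviation was 0.03 in each of these 2 groups, from 2 arrays each. In that comparison 51.1% of probe sets had arrays apart in one direction or the other. The responses in gun1-1 and abi4-102 differed from that in Col-0 by -0.15 and -0.20 (SE 0.17 each).

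**Figure D2:**
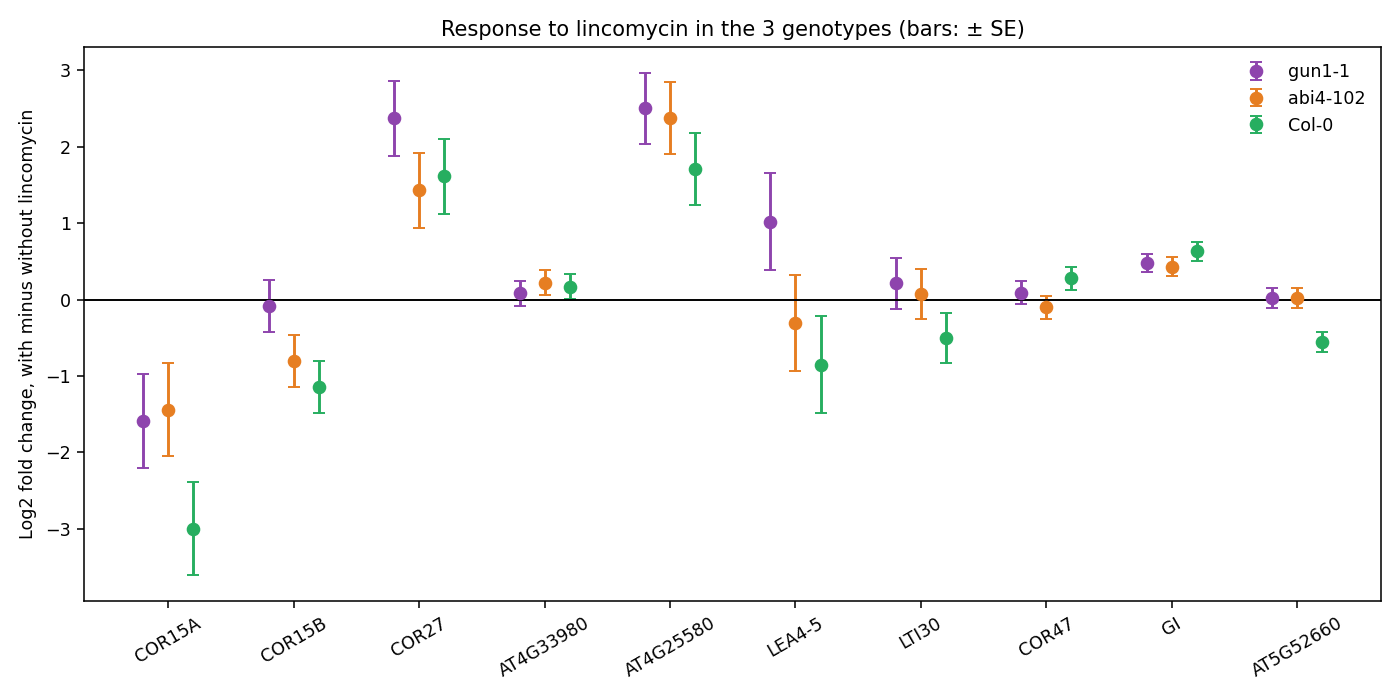
Lincomycin response as log2 fold change (with minus without lincomycin) with its SE in gun1-1, abi4-102 and Col-0, for the 4 genes and 6 genes of the cold and clock lists. COR15A lies below 0 and COR27, AT4G25580 and GI above 0 in all 3 genotypes, and COR15B has a response of -0.08 in gun1-1 against -1.15 in Col-0.

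With lincomycin the 2 arrays of a group differed in the same direction for COR15A, COR27 and AT4G25580. In gun1-1 with lincomycin replicate 2 was the higher array for COR15A, COR27 and AT4G25580, by 0.97, 0.64 and 1.32 on the log2 scale. In abi4-102 with lincomycin replicate 1 was the higher one for all 3, by 0.82, 0.37 and 1.13. In Col-0 with lincomycin it was again replicate 1, by 1.93, 2.06 and 1.25. The median absolute gap between replicates over all probe sets was between 0.15 and 0.17 in these 3 groups. In Col-0 with lincomycin only 0.101% of probe sets had a larger gap than COR15A and only 0.0879% a larger one than COR27.

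The standard deviation between replicates, pooled over the 6 groups, was 0.81 for COR15A, 0.65 for COR27 and 0.62 for AT4G25580, against a median of 0.14 over all probe sets. Only 0.259%, 0.554% and 0.646% of probe sets varied more between replicates than these 3. GI, at 0.11, varied less than the median, and its gaps between replicates were at most 0.23. Without lincomycin the gaps of COR27 and AT4G25580 were at most 0.33, and COR15A had a gap of 1.57 in abi4-102.

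**Figure D3:**
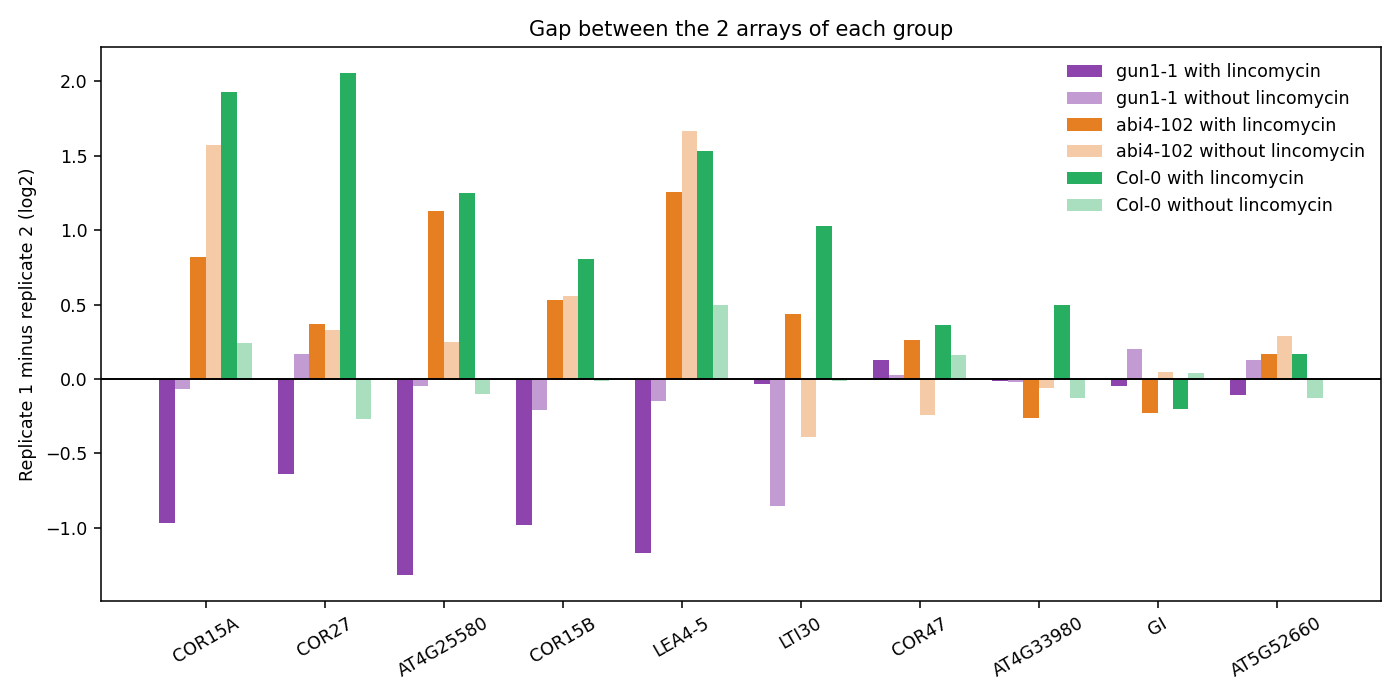
Replicate 1 minus replicate 2 (log2) in each of the 6 groups, for COR15A, COR27, AT4G25580 and GI and for 6 genes of the cold and clock lists. Bars of gun1-1 with lincomycin point down and bars of abi4-102 and Col-0 with lincomycin point up for COR15A, COR27, AT4G25580, COR15B and LEA4-5, while bars of GI stay within 0.23 of 0.

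Other cold-induced genes were read for comparison. Of 41 loci listed as cold-induced, besides the 4 genes, 5 had a probe set named for them alone in the annotation used here. The others may be among the 8730 probe sets left unnamed. Only COR15B passed in any comparison. It encodes a chloroplast protein closely related to COR15A, and no gene of the table lies between them. Whether the probe set of each also detects transcripts of the other was not tested. COR15B had log2 values of 4.88 and 5.86 in gun1-1 with lincomycin, against 5.34 and 5.55 in gun1-1 without it. In abi4-102 it had 4.51 and 3.98 with lincomycin, against 5.32 and 4.76 without. In Col-0 it had 4.74 and 3.93 with lincomycin, against 5.48 and 5.49 without.

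COR15B fell 2.23-fold on lincomycin in Col-0 (log2 fold change -1.15, SE 0.34, limma adjusted p = 0.0372), where 7.95% of all probe sets were called lower. The call was lost without replicate 2 of Col-0 with lincomycin (-0.75, adjusted p = 0.241) and without replicate 1 or 2 of Col-0 without lincomycin (adjusted p = 0.139 and 0.158). Its response was -0.08 in gun1-1 (adjusted p = 0.916) and -0.80 in abi4-102 (adjusted p = 0.156). The difference between the gun1-1 and Col-0 responses was 1.08 (SE 0.48, adjusted p = 0.294) and did not pass, where 4.38% of all probe sets did. Beside these stand the COR15A responses of -1.59 in gun1-1, -1.44 in abi4-102 and -3.00 in Col-0. The difference between the 2 genes was not tested.

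The other 4 cold-induced genes did not pass in any of the 9 comparisons. LEA4-5, a late embryogenesis abundant protein that protects cells from drying, had responses of 1.02 in gun1-1, -0.31 in abi4-102 and -0.85 in Col-0 (SE 0.63 each), with replicate gaps of up to 1.67. LTI30, a dehydrin, had 0.21, 0.07 and -0.50 in the same order (SE 0.33). COR47, another dehydrin and a bright probe set with values of 10.48 to 11.05, had 0.09, -0.10 and 0.28 (SE 0.15). AT4G33980 stood near the bottom of the scale, at 2.90 to 3.40 on all arrays, where no response could be seen. The median response of the 5 genes was 0.09 in gun1-1, -0.10 in abi4-102 and -0.50 in Col-0, against -0.01, 0.02 and 0.02 over all probe sets.

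Among probe sets named for 1 gene, cold signalling regulators were represented by SIZ1 and STZ, 2 of 31 loci listed, and by no CBF gene. SIZ1, a SUMO ligase, rose 1.34-fold on lincomycin in abi4-102 (log2 fold change 0.43, SE 0.11, limma adjusted p = 0.0329), where 7.65% of probe sets were called higher. Its responses of 0.23 in gun1-1 and 0.23 in Col-0 did not pass. The abi4-102 call was lost without any 1 of its 4 arrays (adjusted p from 0.0575 to 0.222). STZ, a zinc finger repressor, had responses of 0.12 in gun1-1, -0.43 in abi4-102 and 0.30 in Col-0 and passed nowhere. Without lincomycin its 2 gun1-1 arrays stood at 7.05 and 5.69.

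The clock list held 46 loci besides GI and COR27, of which 6 were measured, again counting only probe sets named for 1 gene. CCA1, LHY, TOC1 and the PRR genes were not among the 6, so nothing is read of them here. AT5G52660 fell 1.48-fold on lincomycin in Col-0 (log2 fold change -0.56, SE 0.13, limma adjusted p = 0.0124), with 7.17 and 7.0 with the drug against 7.59 and 7.72 without. It is 1 of 6 measured, where 7.95% of all probe sets fell. Its response was 0.02 in both gun1-1 and abi4-102, and the differences from Col-0, 0.58 and 0.59, did not pass (adjusted p = 0.121 and 0.345). The call was lost without replicate 2 of either Col-0 group (adjusted p = 0.107 and 0.0836). TIC, a nuclear clock regulator, had responses of 0.07 in gun1-1, 0.23 in abi4-102 and -0.03 in Col-0. FIO1, which was found through a long-period clock mutant, had -0.03, 0.46 and 0.27, and XCT, another clock regulator, had -0.08, 0.04 and -0.02. None of these 3, nor AT4G01280 or AT1G69570, passed in any comparison. The median response of the 6 was 0.05 in gun1-1, 0.17 in abi4-102 and -0.02 in Col-0.

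In light signalling HYH, a bZIP factor related to HY5, was the 1 measured gene of 26. It rose 1.44-fold on lincomycin in gun1-1 (log2 fold change 0.52, SE 0.15, limma adjusted p = 0.0494) and 1.57-fold in Col-0 (0.65, adjusted p = 0.0118), where 5.79% and 9.40% of probe sets were called higher. In abi4-102 its response was 0.10 (adjusted p = 0.714), and the difference from Col-0, -0.55, did not pass (adjusted p = 0.441). The gun1-1 call was lost with the replicate number as a block (adjusted p = 0.0629) and without replicate 1 of either gun1-1 group (0.277 and 0.229). The Col-0 call was lost without replicate 1 of Col-0 with lincomycin or either array of Col-0 without it (adjusted p from 0.0582 to 0.082). ALDH7B4, a dehydration-induced aldehyde dehydrogenase and the 1 measured gene of 35 in the abscisic acid and dehydration list, rose 1.6-fold in gun1-1 (adjusted p = 0.036) and 1.53-fold in abi4-102 (adjusted p = 0.0456). Each of these 2 calls was lost without any 1 of 3 of its 4 arrays (adjusted p from 0.0694 to 0.283). In Col-0 it had a response of 0.51, which did not pass (adjusted p = 0.0742).

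**Figure D4:**
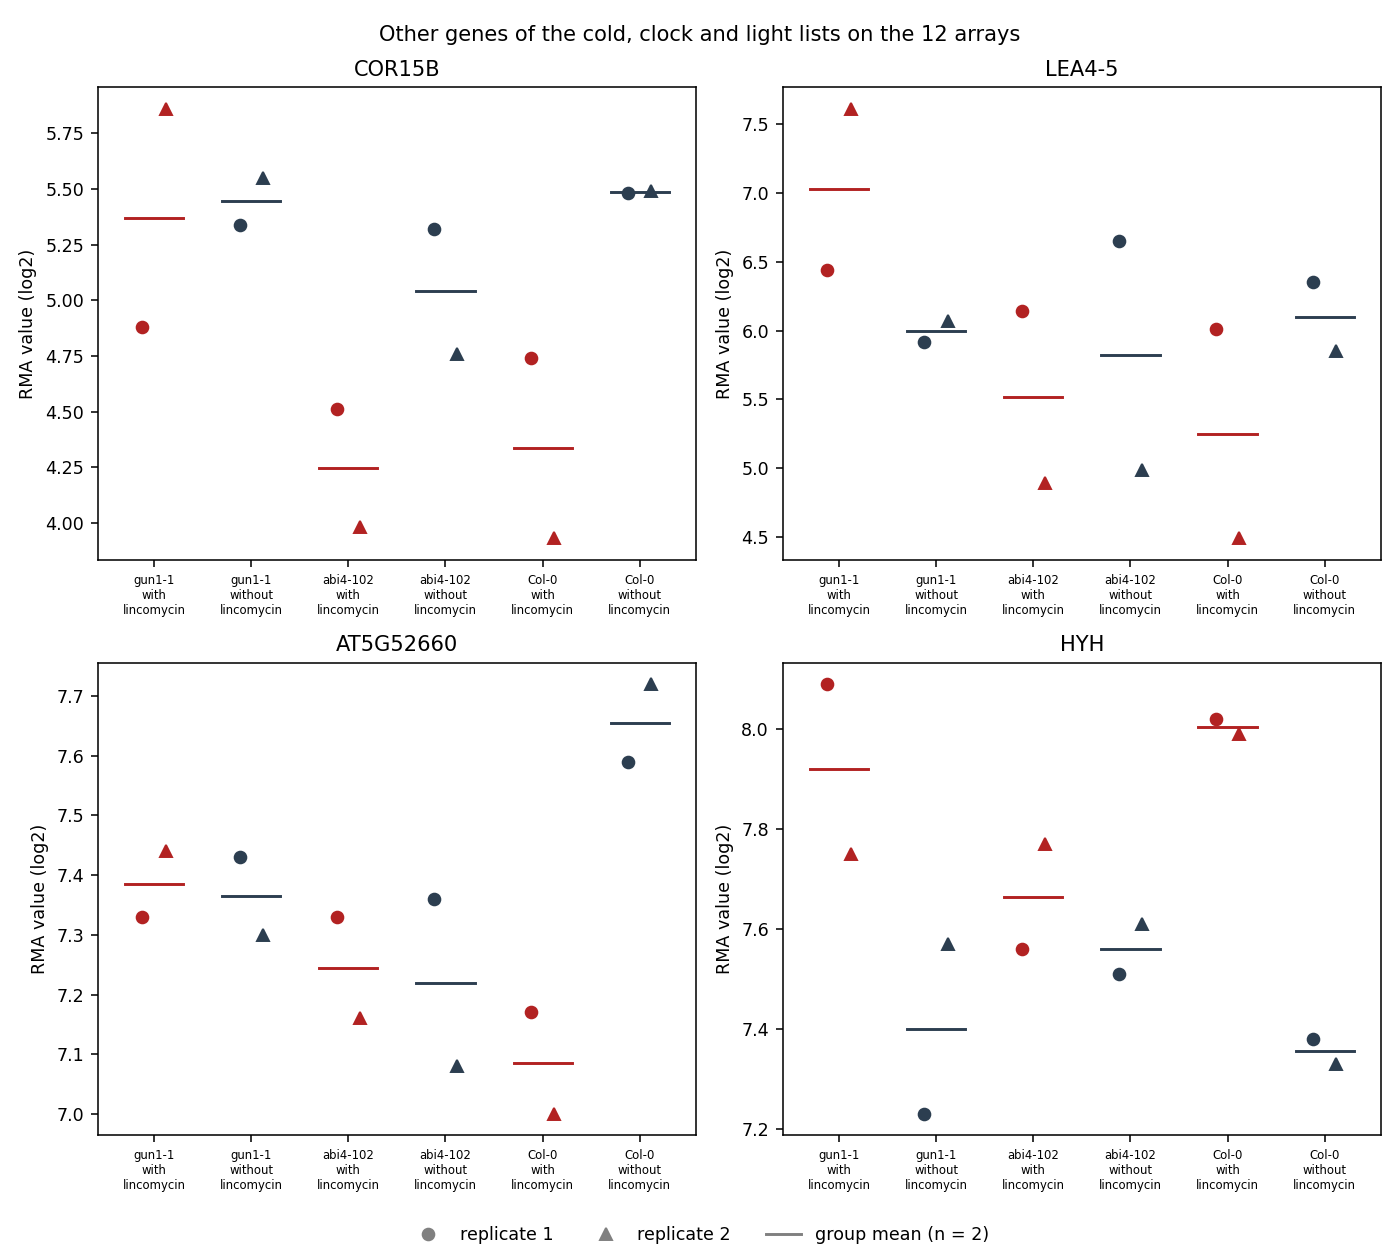
RMA values (log2) of COR15B, LEA4-5, AT5G52660 and HYH on each of the 12 arrays, with symbols and colours as for the 4 genes and a separate scale for each panel. COR15B falls in Col-0 with lincomycin, LEA4-5 shows gaps of up to 1.67 between the 2 arrays of a group, AT5G52660 is highest in Col-0 without lincomycin, and HYH rises in gun1-1 and Col-0.

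For each of the 4 genes the most similar profiles were sought among the 1225 probe sets that name 1 gene and whose group means span at least 1 log2 unit. Likeness was measured by Pearson's r over the 12 arrays, which share their groups and normalization, and it is a description only. COR15A was closest to AT1G68570, the nitrate and peptide transporter family gene NPF3.1 (r = 0.964), followed by AT2G46420, AT1G73390, AT1G77090 and AT5G52420 (r = 0.957 to 0.949). All 5 had negative responses in every genotype, the most negative in Col-0, from -0.96 to -1.47, which their selection by likeness favours. COR15B came in place 17 for COR15A, with r = 0.924.

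COR27 was closest to AT5G56100 (r = 0.967), whose response was 1.35 in gun1-1, 0.96 in abi4-102 and 0.64 in Col-0. AT1G55000, ATIM, named TIMELESS in the gene table, AT1G01770 and AT5G45310 followed (r = 0.938 to 0.923). AT4G25580 itself came in place 6 for COR27, with r = 0.917, next after the 5 closest. AT4G25580 was closest to AT3G10770 (r = 0.974), with responses of 1.11 in gun1-1, 0.94 in abi4-102 and 0.91 in Col-0, and then to AT3G14750, AT3G47610, AT5G05100 and AT2G38820 (r = 0.958 to 0.954). COR27 was in place 30 on its side.

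GI was closest to AT3G10300 (r = 0.966), with responses of 0.79 in gun1-1, 0.56 in abi4-102 and 0.85 in Col-0. GH3.3, which conjugates auxin to amino acids, came next (r = 0.963). Its response was 1.66 in gun1-1, 1.05 in abi4-102 and 2.35 in Col-0. AT1G33050, AT1G33790 and AT5G53800 completed the 5 (r = 0.954 to 0.947). COR15A ran opposite to GI over these arrays (r = -0.828), in place 1078 of 1225, so other probe sets were more opposite still.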

How the data were processed

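Whole seedlings of 6 groups were measured on 12 ATH1 arrays, 2 a group. Per the submitters' processing notes the deposited expression values come from RMA. They are taken as log2 values from their range, and the median of each array as deposited lay between 5.44 and 5.52. The RMA software version is not given in the sources used here. RMA equalises the arrays' distributions, so a change in total mRNA would not be seen. The number of arrays limits the precision. Groups follow the sample titles; for replicate 2 of gun1-1 without lincomycin the genotype tag names every genotype, and its title was used. The mutated genes are not analysed here, so they give no check of the labels.

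After leaving out 64 control probe sets of 22810, limma 3.58.1 (R 4.3.3) fitted 6 group means to each of 22746 probe sets on all 12 arrays, with eBayes and 6 residual degrees of freedom. A probe set passed at a Benjamini-Hochberg adjusted p under 0.05, two-sided, over all probe sets of each of the 9 comparisons. The fit was tested on simulated data. In the array annotation 13513 probe sets name 1 gene, 503 several and 8730 are unnamed here. Gene names come from the gene table of TAIR10.1, which matched 13436 of the 13513.

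The 4 genes and the 9 gene lists were chosen with earlier results of these data known. The rule for named genes was: the 4 genes, called members of each list or those with the smallest p, fixed paralogues and clock genes, and the 5 most similar profiles. Alternatives were the replicate block, other priors, scalings and filters, a fit of only the groups compared, and leaving out each array. No gene of the 4 has another probe set that names it to set against the first.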

Additional observations from a re-analysis of the deposited data

Results flagged for a closer look

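Of the 9 green tissue markers 8 had a response to lincomycin in gun1-1 that differed from that in Col-0 by a direct test of the difference (limma, adjusted p under 0.05), where 4.38% of all probe sets did. The markers were listed with earlier results of these data known, so the count is a description only. All 8 were lower with lincomycin in both genotypes, by less in gun1-1 (log2 fold changes from -0.48 to -0.15) than in Col-0 (from -1.87 to -0.98). The remaining marker, LHCB4.3, fell by more in gun1-1 (-0.64) than in Col-0 (-0.36). That difference did not pass (limma adjusted p = 0.481). With 1 array left out, 5 to 7 of the 9 passed, 5 of them without replicate 2 of Col-0 without lincomycin.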

How the results depend on the processing

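The replicate numbers have no stated shared origin, and deviations of same-numbered arrays correlated from -0.0688 to 0.281 over 7 pairs of groups. With the replicate number as a block, 2297 probe sets passed in gun1-1 (2432 without it), 2844 in abi4-102 (2993) and 3881 in Col-0 (3948), and of the 9 calls of list genes outside the green tissue list only HYH in gun1-1 was lost. The block cannot change a fold change, since every group holds 1 array of each replicate number. Centring and a second quantile normalization kept all 36 fold changes of the 4 genes within their replicate SD. RMA had already equalised the arrays, so these 2 settings could move them little. Among probe sets that name 1 gene, with fewer tested, 1252 passed in gun1-1, 1588 in abi4-102, 1960 in Col-0, 1104 and 65 for gun1-1 and abi4-102 against Col-0 with lincomycin, 3 and 134 for the same without lincomycin, and 466 for the difference of response of gun1-1. Fitting only the groups compared gave 766 in gun1-1, 1966 in abi4-102, 1080 and 21 against Col-0 with lincomycin, and 761 for abi4-102 against Col-0 without lincomycin. The upper 60% of probe sets by mean gave 62 for abi4-102 against Col-0 with lincomycin and 1 for gun1-1 without, and a second quantile normalization gave 2 for the last. The difference of response of abi4-102 had 0 calls by limma, 2230 at an unadjusted p under 0.05, and 9 with a trend and robust prior. The cause of these shifts was not tested.

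Leaving out 1 array gave 1145 to 1764 calls in gun1-1, 1156 to 2052 in abi4-102 and 2099 to 2949 in Col-0. Against Col-0 it gave 1501 to 1990 for gun1-1 and 46 to 66 for abi4-102 with lincomycin, and 0 to 24 and 39 to 189 without. The differences of response had 392 to 840 calls in gun1-1 and 0 to 4 in abi4-102.

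The lincomycin responses of the 4 genes kept their direction with any 1 array left out. This was fixed in advance, since the arrays with and without lincomycin lay apart for each gene. COR15A ranged from -2.23 to -0.66 for its response in abi4-102 and -3.97 to -2.03 in Col-0, from 0.62 to 2.56 for gun1-1 and -0.96 to 0.98 for abi4-102 against Col-0 with lincomycin, and from 0.44 to 2.37 and 0.59 to 2.52 for their differences of response. COR27 ranged over 0.58 to 2.64, -0.14 to 1.92, -1.04 to 1.02, -0.26 to 1.80 and -1.21 to 0.85 for the same quantities from the Col-0 response on. AT4G25580 ranged over 1.08 to 2.33, -0.24 to 1.08 (with -0.21 without replicate 2 of Col-0), -0.03 to 1.22, 0.14 to 1.46 and 0.05 to 1.30, and over 1.84 to 3.16 for its response in gun1-1. GI ranged over 0.32 to 0.55 for its response in abi4-102, -0.11 to 0.12 for abi4-102 against Col-0 with lincomycin and -0.31 to -0.08 for that difference of response. Differences between genotypes near 0 changed sign in further cases by less than the replicate SD.

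The calls of list genes were recomputed under alternatives chosen after seeing the data. COR15B was lost with a trend and robust prior (adjusted p = 0.0569), SIZ1, ALDH7B4, EXPA18 and M10 when only the groups compared were fitted (0.0924 for SIZ1, 0.0735 and 0.0998 for ALDH7B4 in gun1-1 and abi4-102, 0.11 and 0.0639 for the other two), ALDH7B4 in abi4-102 with centred arrays (0.0514), and HYH in gun1-1 in 4 settings (0.0515 to 0.17). The green tissue markers lower in gun1-1, 3 of 9, were 0 to 5 over the settings that kept all arrays. Another probe set per gene was not run, since each gene has 1.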

Other observations

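The gaps between replicates were examined further after they were seen. The pattern of signs used here is the one seen in COR15A, COR27 and AT4G25580, so that these 3 genes have it was fixed in advance. Replicate 1 stood above replicate 2 in abi4-102 and Col-0 with lincomycin and below it in gun1-1 with lincomycin for 12.1% of all probe sets. With each gap at least 0.5 on the log2 scale, the pattern held for 34 of 22746 probe sets (0.149%), 16 of which name 1 gene. COR15A and AT4G25580 are 2 of these 16, and COR27 misses the minimum by its gap of 0.37 in abi4-102. LEA4-5 leads them, with gaps of -1.17 in gun1-1, 1.26 in abi4-102 and 1.53 in Col-0. COR15B belongs to them as well, with gaps of -0.98, 0.53 and 0.81. By the smallest of the 3 gaps, AT5G39520, AT4G30460 and AT1G26250 are in places 3, 4 and 5, and AT4G39675 and AT3G05640 in places 9 and 10. AT5G39520 had gaps of -1.36, 1.27 and 1.02. SIS, named for its induction by salt in the gene table, follows in place 11, with gaps of -0.66, 0.76 and 1.58. A function shared by the 16 genes was not tested. AT2G21820 had gaps of -1.31, 0.79 and 1.97, near those of COR15A (-0.97, 0.82 and 1.93), and AT2G41190 had -0.98, 0.76 and 1.71. What differed between the 2 arrays of these groups was not tested. Of the 5 measured cold-induced genes 3 had the pattern of signs and 2, LEA4-5 and COR15B, reached the minimum. COR47 did not have it, with gaps of 0.13 in gun1-1, 0.26 in abi4-102 and 0.36 in Col-0, nor did AT4G33980, with -0.01, -0.26 and 0.50. None of the 6 measured clock genes reached the minimum, and 1 of them had the pattern of signs.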
